A study of Drosophila melanogaster with 18 samples.

Results

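The 5 genes described here, otu, zpg, orb, alphaTub67C and fs(1)Ya, act in the female germline of Drosophila melanogaster or are loaded by the mother into the egg. They were chosen by symbol in the array annotation, and each was measured by 1 probe set, giving 5 of the 16322 probe sets on the array. All 5 were close to each other in their pattern over the groups. Of these, otu, zpg and fs(1)Ya were dim on every array of the larvae without the driver and of the early generations with it, alphaTub67C was near the lower quartile there, and orb was at a moderate level that was already somewhat higher in the second generation. Each was far higher in larvae that had carried the driver for 4 or 5 generations.

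Whole larvae of the third instar were profiled on Affymetrix gene arrays, with 2 arrays in each of 9 groups and 18 arrays in all. In the Tub-3L groups a tubulin-GAL4 driver, which is active in most tissues, switched on a UAS transgene encoding DNMT3L, a mammalian regulator of DNA methyltransferases and chromatin that flies lack. These groups were sampled at generations G1, G2, G4 and G5, and G5P was made of larvae of the fifth generation that had melanotic tumours. The groups without the driver were G20*, UAS-3L G5, w1118 and UAS-3L G1. The UAS-3L G5 and UAS-3L G1 larvae carried the transgene alone, at generations G5 and G1, and the w1118 larvae were of the recipient strain of the injected transgene. The labels of G20* contradict each other. Its title names generation G20 of the Tub-3L line, while its description gives G5 larvae from which the driver had been removed. The paper describes the group as G20 larvae after the driver had been crossed out. Because the labels differ, the larvae are called G20* here and no generation is drawn from the group. All Tub-3L larvae came from 1 transgene line, each array was made from a pool of larvae, and no source used here gives the sex of the larvae. As all comparisons are between whole-larva pools, fewer cells of a type and less RNA per cell cannot be told apart. With 2 pools a group, the p-values measure only the spread between such pools.

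The germline of the fly ovary makes cysts of interconnected cells, in which one cell becomes the oocyte and the others supply it with RNA and protein. The otu gene (ovarian tumor) encodes a deubiquitinase that germ cells need to leave the proliferating state and build a normal cyst, and zpg (zero population growth) encodes the germline innexin, a gap junction protein through which germ cells exchange small molecules with the surrounding soma. The orb gene encodes an RNA-binding protein of the CPEB family that controls translation of localised mRNAs in the oocyte. The alphaTub67C gene encodes an alpha-tubulin that the mother supplies for meiosis and for the first nuclear divisions of the embryo, and fs(1)Ya encodes a maternal protein of the nuclear envelope needed when the egg starts to develop. In normal development larval ovaries are small and hold undifferentiated germ cells, and egg production begins after the larval stages. Both zpg and orb are also expressed in the male germline.

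In the RefSeq annotation of the fly genome otu and fs(1)Ya lie on chromosome X, orb lies on 3R, and zpg and alphaTub67C lie on 3L. The annotation gives 5 transcripts for otu, 7 for orb, 2 for zpg and 1 each for alphaTub67C and fs(1)Ya. A probe set covers the exons of a gene together, so transcripts of one gene could not be separated. The otu gene overlaps CG33181, and zpg overlaps Rexo5, so part of their signal could come from the overlapping gene. The other 3 members overlap no annotated gene.

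Signals are given on the log2 scale of the deposited table, on which array medians ran from 6.17 to 6.39 and lower quartiles from 4.16 to 4.57. A value under the lower quartile of its own array is a dim one, near the floor of what the array separates. Levels of different genes were not compared, because probes differ in brightness. A gene was called when its limma adjusted p (Benjamini-Hochberg over 16322 probe sets) was below 0.05 and its signal differed by at least 2-fold. All comparisons with UAS-3L G1 share those 2 control arrays.

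The otu signal was the one that changed most. It was 9.03 and 8.92 in Tub-3L G4, 9.74 and 9.68 in Tub-3L G5, and 10.39 and 10.65 in Tub-3L G5P. It was 3.21 and 2.80 in Tub-3L G1, and 3.05 and 2.70 in Tub-3L G2. It was 3.21 and 3.35 in G20*, 3.13 and 3.88 in UAS-3L G5, 3.26 and 2.73 in w1118, and 2.53 and 3.32 in UAS-3L G1. The 6 arrays of G4, G5 and G5P therefore stood apart from the other 12, the lowest of the 6 lying 5.04 log2 units above the highest of the 12. The share of all probe sets separated in this way was not counted, here or for the members below. All 12 other values were under the lower quartile of their arrays. Against UAS-3L G1 the otu signal was higher by 6.05 in G4, 6.78 in G5 and 7.60 in G5P (SE 0.29 each), which is 66.3-, 110- and 193-fold. The adjusted p was 1.29e-08 in G4, 1.72e-09 in G5 and 3.20e-10 in G5P. Because the control values were dim, the folds depend on the floor: with every value raised to the lower quartile of its array they were 24.6-, 40.8- and 71.7-fold.

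The germline innexin zpg followed otu closely. In the late Tub-3L groups its signal was 7.68 and 7.69 (G4), 8.33 and 8.32 (G5), and 9.13 and 9.03 (G5P). In the earlier generations it was 2.93 and 2.48 in G1 and 2.73 and 2.66 in G2. Without the driver it was 2.48 and 2.76 in G20*, 2.96 and 2.38 in UAS-3L G5, 2.28 and 2.38 in w1118, and 2.56 and 2.66 in UAS-3L G1. The 6 high arrays and the 12 low ones were 4.72 log2 units apart, and all 12 low values were under the lower quartile. The differences from UAS-3L G1 were 5.08 in G4, 5.71 in G5 and 6.47 in G5P (SE 0.18 each), or 33.7-, 52.5- and 88.8-fold, with adjusted p of 9.90e-10, 1.22e-10 and 1.51e-11. Raised to the lower quartile, they were 10.03-, 15.6- and 26.4-fold.

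The translation regulator orb differed from the other members in being well measured in all groups. Its late Tub-3L values were 9.21 and 9.19 (G4), 10.004 and 10.08 (G5), and 10.27 and 10.32 (G5P). It was 6.46 and 6.64 in G1 and 7.35 and 7.35 in G2. In G20* it was 6.81 and 6.83, in UAS-3L G5 6.44 and 6.58, in w1118 6.98 and 6.81, and in UAS-3L G1 6.50 and 6.45. None of these values was under the lower quartile of its array, so its folds do not rest on the floor. The gap between the lowest of the 6 late Tub-3L arrays and the highest of the other 12 was 1.84. Compared with UAS-3L G1, orb was higher by 2.72 in G4, 3.57 in G5 and 3.82 in G5P (SE 0.0887 each), or 6.61-, 11.8- and 14.1-fold, with adjusted p of 5.60e-10, 3.26e-11 and 3.32e-12. It was also the member with a difference in G2, where it was 0.88 above UAS-3L G1 (adjusted p 2.31e-05) and 0.80 above G1 (adjusted p 3.68e-05), under the 2-fold limit in both cases. Smaller differences from UAS-3L G1 were found without the driver. They were 0.35 for G20* (adjusted p 0.0240) and 0.42 for the w1118 larvae (adjusted p 0.00395). Without the 2-fold limit, 2766 of 16322 probe sets were higher in G2 than in UAS-3L G1 at an adjusted p below 0.05. The same count was 1191 in G20* and 2263 in w1118, and 2608 in G2 against G1.

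The maternal tubulin alphaTub67C had signals of 8.42 and 8.32 (Tub-3L G4), 8.90 and 8.83 (Tub-3L G5), and 9.55 and 9.72 (Tub-3L G5P). It was 4.36 and 4.42 in G1 and 3.98 and 3.44 in G2. It was 4.16 and 4.51 in G20*, 4.67 and 4.24 in UAS-3L G5, 4.10 and 5.19 in w1118, and 4.95 and 4.10 in UAS-3L G1. Here too the late Tub-3L arrays were separate, by 3.13, although the 2 w1118 arrays differed by 1.09 and the 2 UAS-3L G1 arrays by 0.85. Under the lower quartile were 7 of the 12 other values. The differences from UAS-3L G1 were 3.84 in G4, 4.34 in G5 and 5.11 in G5P (SE 0.34 each), or 14.4-, 20.3- and 34.5-fold, with adjusted p of 2.35e-06, 3.52e-07 and 5.21e-08. In G2 both arrays were below both UAS-3L G1 arrays, a separation not counted over all probe sets, and the difference was -0.81 (adjusted p 0.0915). Without UAS-3L G1 replicate 2 it was -1.24 (adjusted p 0.0333, with a range of 0.0333 to 0.50 over the alternatives run), which makes that call depend on one control array.

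The nuclear envelope gene fs(1)Ya had signals of 6.37 and 6.13 (Tub-3L G4), 6.98 and 6.67 (Tub-3L G5), and 7.93 and 7.69 (Tub-3L G5P). It was 3.40 and 3.004 in G1 and 2.67 and 2.91 in G2. It was 2.61 and 3.22 in G20*, 3.27 and 2.65 in UAS-3L G5, 2.72 and 2.76 in w1118, and 2.95 and 2.67 in UAS-3L G1. The 6 late arrays were again above the other 12, by 2.73, and all 12 were under the lower quartile. Its differences from UAS-3L G1 were 3.44 in G4, 4.02 in G5 and 5.004 in G5P (SE 0.24 each), or 10.9-, 16.2- and 32.1-fold, with adjusted p of 3.18e-07, 3.16e-08 and 2.58e-09. Raised to the lower quartile, the folds were 3.71, 5.53 and 11.0.

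**Figure D1:**
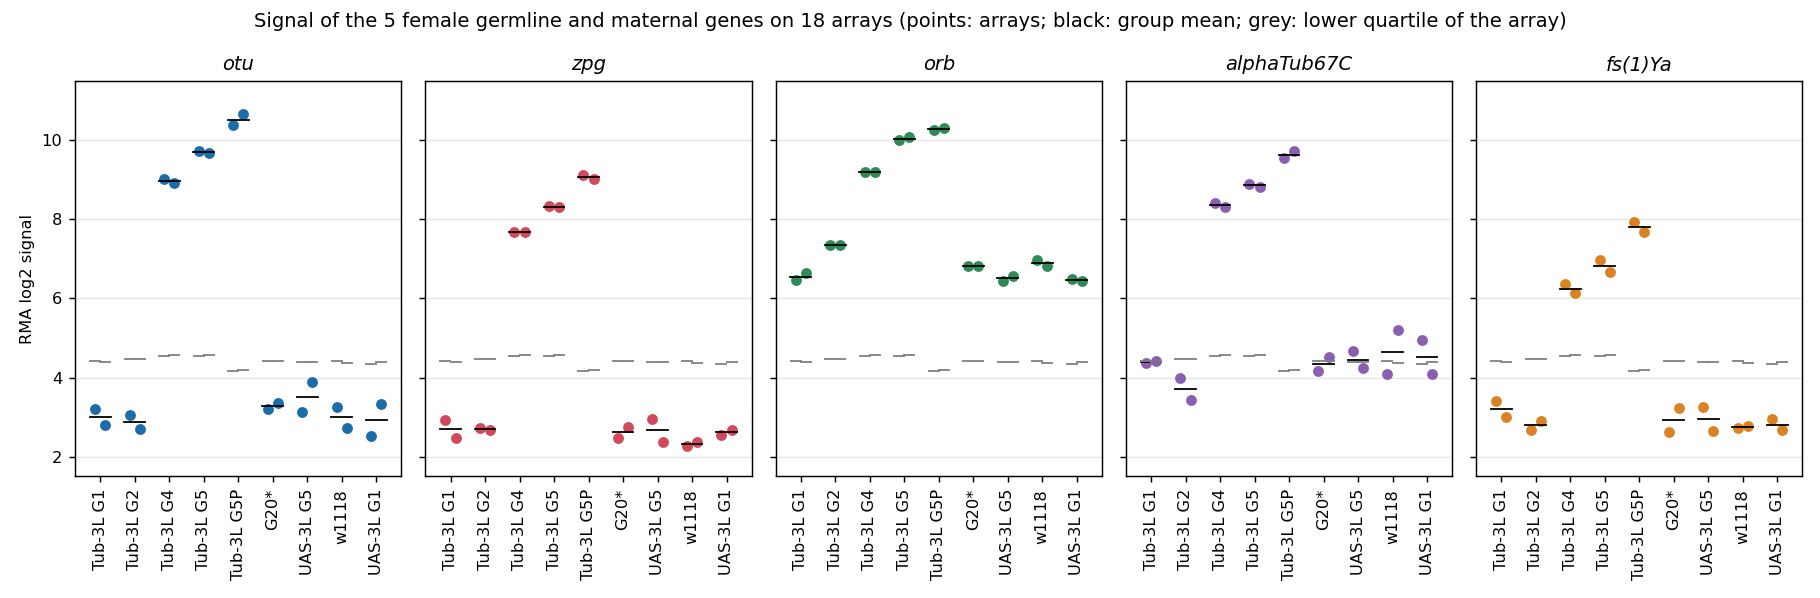
RMA log2 signal (vertical axis) of the 5 genes on the 2 arrays of each of the 9 groups, with the Tub-3L generations at the left and the groups without the driver at the right. Points are arrays, black lines group means and grey marks the lower quartile of each array. In each panel the 6 arrays of Tub-3L G4, G5 and G5P lie above the other 12, and otu, zpg and fs(1)Ya lie under the lower quartile on all of those 12. The share of all probe sets so separated was not counted.

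Counted together, 5 of 5 members were called higher than UAS-3L G1 in Tub-3L G4, where 7.54% of all probe sets were called higher. In G5 the count was 5 of 5 against 13.0%, and in G5P 5 of 5 against 15.2%. The median difference over the members was 3.84 in G4, 4.34 in G5 and 5.11 in G5P, beside medians over all probe sets of -0.03, 0.02 and 0.01. With values raised to the lower quartile the members' median was 3.33 in G4, 3.97 in G5 and 4.72 in G5P. The 5 were named as one group with their pattern known, so the counts describe them.

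In the other groups no member was called by limma in either direction. The count was 0 of 5 in Tub-3L G1 (1.23% of all probe sets called higher), 0 of 5 in Tub-3L G2 (3.38%), 0 of 5 in G20* (0.882%), 0 of 5 in UAS-3L G5 (1.0%) and 0 of 5 in w1118 (2.36%). At an unadjusted p under 0.05, limma gave 0 members in G1, 2 in G2, 1 in G20*, 0 in UAS-3L G5 and 1 in w1118. The share of all probe sets passing that unadjusted threshold was not counted, here or below. No member differed by 2-fold in these 5 comparisons, so the test that the study's methods name could call none with that limit. The intervals were still wide for the dim members: in Tub-3L G1 the 95% confidence interval of the difference was -0.55 to 0.71 for otu, -0.29 to 0.48 for zpg, -0.87 to 0.61 for alphaTub67C and -0.13 to 0.92 for fs(1)Ya. For orb it was narrower, at -0.12 to 0.27.

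**Figure D2:**
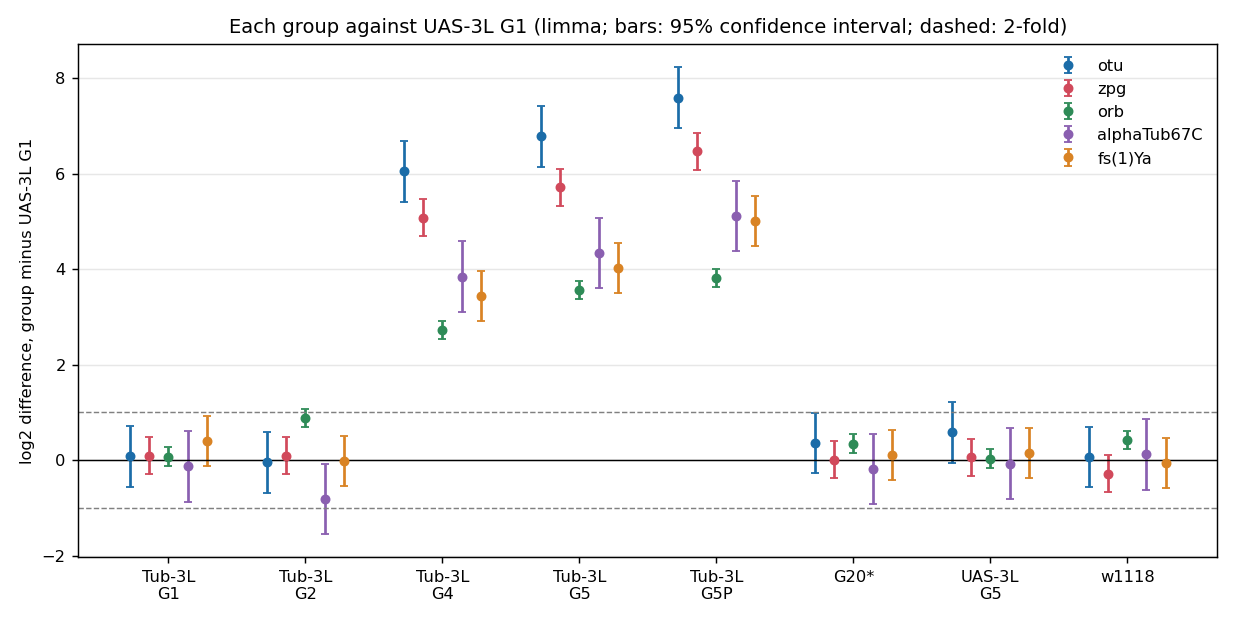
Difference in log2 signal between each group and UAS-3L G1 (vertical axis) for the 5 genes, fitted with limma. Bars are 95% confidence intervals and dashed lines mark 2-fold. In Tub-3L G4, G5 and G5P all 5 genes lie above the upper line, from 2.72 for orb in G4 to 7.60 for otu in G5P as fitted to the deposited values, and in the other groups no point passes 1 or -1.

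Larvae with and without the driver were also compared inside generation G5, against UAS-3L G5. In Tub-3L G5 5 of 5 members were called higher than in UAS-3L G5 (12.2% of all probe sets), by 3.53 for orb to 6.20 for otu. In Tub-3L G5P 5 of 5 were called higher (14.1%), by 3.79 for orb to 7.02 for otu. Because most UAS-3L G5 values were dim, these sizes and their order depend on the floor. With values raised to the lower quartile, the G5 differences were 2.43 for fs(1)Ya, 3.53 for orb, 3.93 for zpg, 4.33 for alphaTub67C and 5.32 for otu, and those of G5P ran from 3.42 for fs(1)Ya to 6.13 for otu. In G20* none was called against UAS-3L G5 (0 of 5, with 0% of all probe sets called). At an unadjusted p under 0.05 limma gave 1, orb, which was 0.31 higher in G20*. When the difference with and without the driver in G5 was set against that in G1, the change was called higher for 5 of 5 members (11.9% of all probe sets).

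The steps between neighbouring Tub-3L groups were unequal. From the second generation to the fourth, each member rose by more than in any other step. G4 exceeded G2 by 6.10 for otu, 4.99 for zpg, 1.85 for orb, 4.66 for alphaTub67C and 3.46 for fs(1)Ya, with 5 of 5 members called (6.20% of all probe sets). The G2 values of all members but orb were dim, and with values raised to the lower quartile the step was 4.51 for otu, 3.22 for zpg, 3.90 for alphaTub67C and 1.78 for fs(1)Ya, with orb still at 1.85. In fold, this is 22.8 in place of 68.6 for otu and 3.44 in place of 11.0 for fs(1)Ya. G2 against G1 gave 0 of 5 calls (2.71%), and limma at an unadjusted p under 0.05 gave 1, orb. None reached 2-fold, so the methods' test with that limit could call none. Larvae of generation G3 were not analysed here.

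Within the late groups the rise went on at a smaller size. G5 exceeded G4 by 0.73 for otu, 0.64 for zpg, 0.84 for orb, 0.50 for alphaTub67C and 0.58 for fs(1)Ya. Both G5 arrays were above both G4 arrays for each gene, and the share of all probe sets so separated was not counted. None reached 2-fold (0 of 5 called, with 0.337% of all probe sets called higher). The adjusted p passed 0.05 for orb (2.48e-05) and zpg (0.0215), and not for otu (0.0892), fs(1)Ya (0.104) or alphaTub67C (0.327). The fit pools the spread of a gene over all 9 groups, so the noise of dim values enters these p-values. For otu the SD was 0.04 in G5 and 0.08 in G4, beside 0.56 in UAS-3L G1. Of the 16322 probe sets, 2275 were higher and 1744 lower in G5 than in G4 at an adjusted p below 0.05, without the 2-fold limit. At an unadjusted p under 0.05, without the 2-fold limit, limma gave 4 of 5. The methods' test with that limit could call none, because no difference reached it.

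G5P and G5 larvae were of the same generation, and the labels set them apart by the melanotic tumours. G5P exceeded G5 by 0.81 for otu (adjusted p 0.0325), 0.76 for zpg (0.00346), 0.25 for orb (0.0303), 0.77 for alphaTub67C (0.0761) and 0.99 for fs(1)Ya (0.00425). Passing the adjusted p was common in this comparison. Of the 16322 probe sets, 4305 were higher and 4290 lower in G5P at an adjusted p below 0.05, without the 2-fold limit. The arrays of the groups did not overlap for any member, and the share of all probe sets without overlap was not counted. With the 2-fold limit 0 of 5 were called (2.88% of all probe sets called higher). At an unadjusted p under 0.05, without that limit, limma gave 5 of 5. No member differed by 2-fold, so the methods' test with the 2-fold limit could call none. The fs(1)Ya difference lay just under that limit and passed it, at 1.11, without Tub-3L G5P replicate 2 and, at 1.14, without Tub-3L G5 replicate 1.

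**Figure D3:**
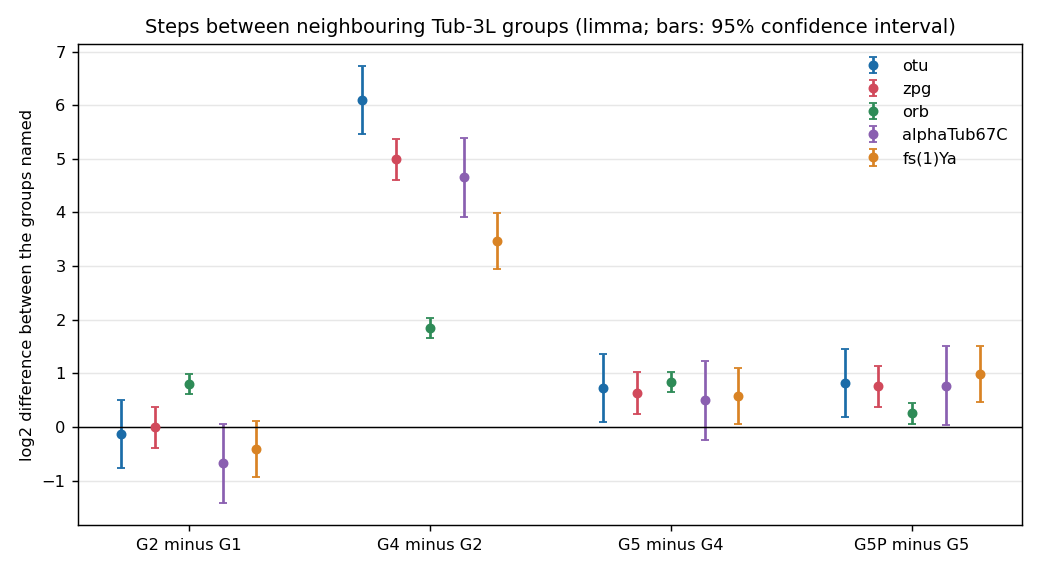
Difference in log2 signal between neighbouring Tub-3L groups (vertical axis, in the order named under each step) for the 5 genes, with 95% confidence intervals from limma. As fitted to the deposited values, the step between G4 and G2 runs from 1.85 to 6.10, while G5 minus G4 runs from 0.50 to 0.84 and G5P minus G5 from 0.25 to 0.99.

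Over the 9 group means the members followed each other, with Pearson's r from 0.963 for orb and alphaTub67C to 0.998 for otu and zpg. These correlations rest on the contrast between the 3 late Tub-3L groups and the other 6, and the points share arrays and normalization. A pattern of this kind was not rare on the array: 454 probe sets (2.78%) had r of at least 0.95 with otu, and 260 (1.59%) had it with all 5 members at once. Among the probe sets with a symbol, those most like otu were zpg (0.998), CG15721 (0.997) and APC7 (0.997). The most like zpg were APC7, otu and CG43090 (0.998 each), and the most like fs(1)Ya were zpg (0.996), c(2)M (0.996) and CG15721 (0.995). The eggshell genes dec (0.997) and Vm34Ca (0.995) were, with CG15721 (0.995), the most like alphaTub67C. For orb they were eloF (0.988), Dop2R (0.988) and APC7 (0.987). Likeness in r did not mean likeness in size: Dop2R was 0.65 higher in G5P than in UAS-3L G1, against 5.30 for eloF and 3.82 for orb.

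Further genes of oogenesis, egg activation and the first embryonic cycles came from a list of 119, of which 17 had a probe set named in the annotation. Of the 17, 5 were called higher than UAS-3L G1 in Tub-3L G4 (7.54% of all probe sets) and 7 in G5 (13.0%). The G5P larvae had 10 called higher (15.2%) and 1 called lower (13.7%). Their median difference was 0.53 in G4, 0.63 in G5 and 1.39 in G5P, smaller than that of the members. Without the driver 1 of the 17, abo, was called higher in G20* (1.24) and in UAS-3L G5 (1.01), and it was 1.77 higher in G5P. In G1 0 of 17 were called and in G2 1, ord, which acts in meiotic chromosome cohesion and was 1.103 higher. In G5P the higher genes included c(2)M, a component of the synaptonemal complex (4.54), del, a factor of piRNA cluster transcription in the germline (3.80), gwl, the Greatwall kinase of meiotic and mitotic entry (3.65), and qin, a piRNA pathway protein (3.39). Another component of the synaptonemal complex, c(3)G, was 2.30 higher, and cal1, which loads the centromeric histone, was 2.47 higher. The gene bgcn, a partner of bam in early germ cell differentiation, was 1.36 log2 units lower in G5P. Genes of oogenesis that were not called in G5P included mamo (0.06), hts (0.03), an adducin of the fusome and ring canals, and the RNA-binding gene Rbp9 (-0.10).

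The measured relatives of the members took other courses. Of the innexins other than zpg, ogre and Inx2, which form gap junctions in somatic tissues, were called lower in G5P than in UAS-3L G1, by -1.28 and -1.26, while zpg was 6.47 higher. Of 6 further tubulins 1 was called higher than UAS-3L G1 in each of Tub-3L G1, G2, G4, G5 and w1118 (1.23% to 13.0% of all probe sets), and none in G5P (15.2%). The ubiquitous alphaTub84D differed by 0.28 and betaTub56D by 0.00, betaTub60D was called lower at -2.14, and the testis tubulin betaTub85D, called higher in G5 (1.09), differed by -0.44 in G5P. The course of alphaTub85E was another one: it was called higher in G1 (1.303), G2 (2.86), G4 (3.55) and w1118 (1.06), and called lower in G5P (-1.93). The other CPEB gene, orb2, was called higher in G5 (1.103) and differed by 0.21 in G5P. The lamin B receptor gene LBR, of the same compartment as fs(1)Ya, differed by 0.97 in G5P and was not called.

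**Figure D4:**
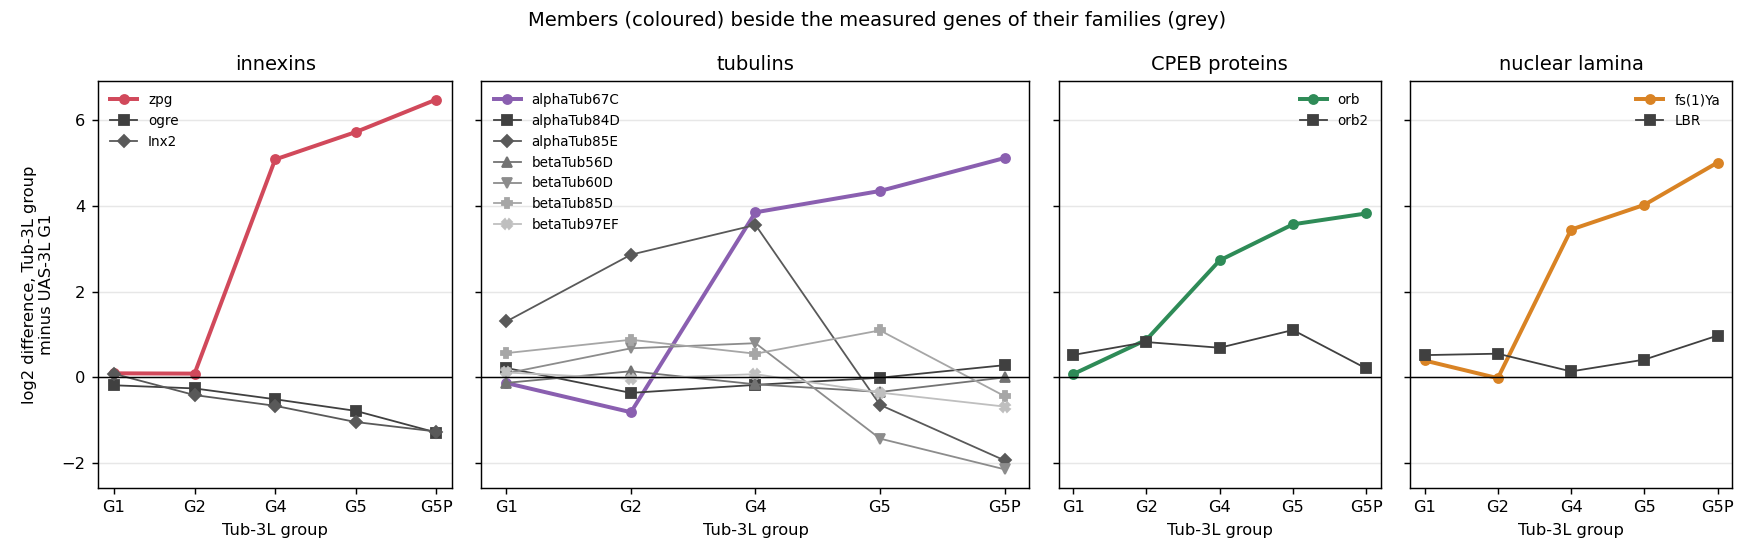
Difference in log2 signal from UAS-3L G1 (vertical axis) in the 5 Tub-3L groups for the members (coloured) and the other measured genes of their families (grey). By G5P zpg, alphaTub67C, orb and fs(1)Ya reach 6.47, 5.11, 3.82 and 5.004, while in that group no relative drawn beside them exceeds 0.97. In earlier groups some relatives lie above that value, alphaTub85E in G1, G2 and G4, and betaTub85D and orb2 in G5.

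Few neighbours on the chromosome had a named probe set. Within 5 genes on either side, these were Nrg beside otu (-0.73 in G5P against UAS-3L G1, not called), wda beside orb (1.39, called higher) and GluRIA beside zpg (-0.60, not called), each 2 genes away.

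Markers of follicle cells and of the male accessory gland rose in the same groups as the members. Salivary glue markers fell in those groups, with some also called lower in Tub-3L G2 and w1118. Testis markers followed the members only in part. What part such cells had in the members' values was not tested. Of 5 genes of follicle cells, which surround the egg and make its shell, 4 were called higher than UAS-3L G1 in Tub-3L G4 (7.54% of all probe sets). The count was 5 in G5 (13.0%) and 4 in G5P (15.2%), and none were called higher in any group without the driver (0.882% to 2.36%). Vm26Aa, a vitelline membrane protein, was 6.62 higher in G5P, and dec, an eggshell protein, was 4.90 higher. The summed linear signal of the 5 was 1865 to 1923 in G4, 2885 to 3162 in G5 and 3153 to 3754 in G5P, against 65.1 to 75.1 in UAS-3L G1. In Tub-3L G1 and G2 all 5 were under the lower quartile on both arrays.

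Male genes moved as well. Of 11 genes of the male accessory gland, which makes seminal fluid proteins, 11 were called higher than UAS-3L G1 in G4 (7.54% of all probe sets), 11 in G5 (13.0%) and 10 in G5P (15.2%). Their summed signal was 6481 to 6817 in G4, 9454 to 9759 in G5 and 3522 in G5P, against 146 to 153 in UAS-3L G1. Of 12 testis genes, 3 were called higher in G2 (3.38% of all probe sets), 4 in G4 (7.54%) and 9 in G5 (13.0%). In G5P 0 of 12 were called in either direction (15.2% of all probe sets higher and 13.7% lower). Their sum was 3635 to 3671 in G5, 1234 to 1258 in G5P and 1214 to 1487 in UAS-3L G1.

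In G5P against G5 the lists gave different counts, with 2.88% of all probe sets called higher and 10.5% called lower. The 5 members were higher in G5P by 0.25 to 0.99 and 0 of 5 follicle cell genes were called, with a median of 0.21. Of the 17 further genes of oogenesis and the early embryo, 6 were called higher and 2 lower, bgcn (-1.39) and Rbp9 (-1.21). Of the male lists, 9 of 11 accessory gland genes were called lower in G5P, with a median of -1.53, and so were 9 of 12 testis genes, with a median of -1.18. Of the 6 salivary glue genes, described below, 6 were called lower in G5P, with a median of -5.24. The difference between the lists was not tested.

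Salivary gland glue genes, which mark the end of larval life, were set beside the labelled stage. Whether all groups were of the same stage was not tested. The glue sum over 6 genes was 13148 to 22705 in the groups other than Tub-3L G4, G5 and G5P. It was 4452 to 4583 in G4, 3448 to 3847 in G5 and 87.8 to 90.1 in G5P, and 6 of 6 were called lower than in UAS-3L G1 in each (4.85%, 10.2% and 13.7% of all probe sets). In G2 2 of the 6, Sgs1 and Sgs5, were called lower (2.24% of all probe sets), and in w1118 1 was (1.85%). In G5P, the group in which the members were highest, 4 of the 6 were under the lower quartile on both arrays.

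**Figure D5:**
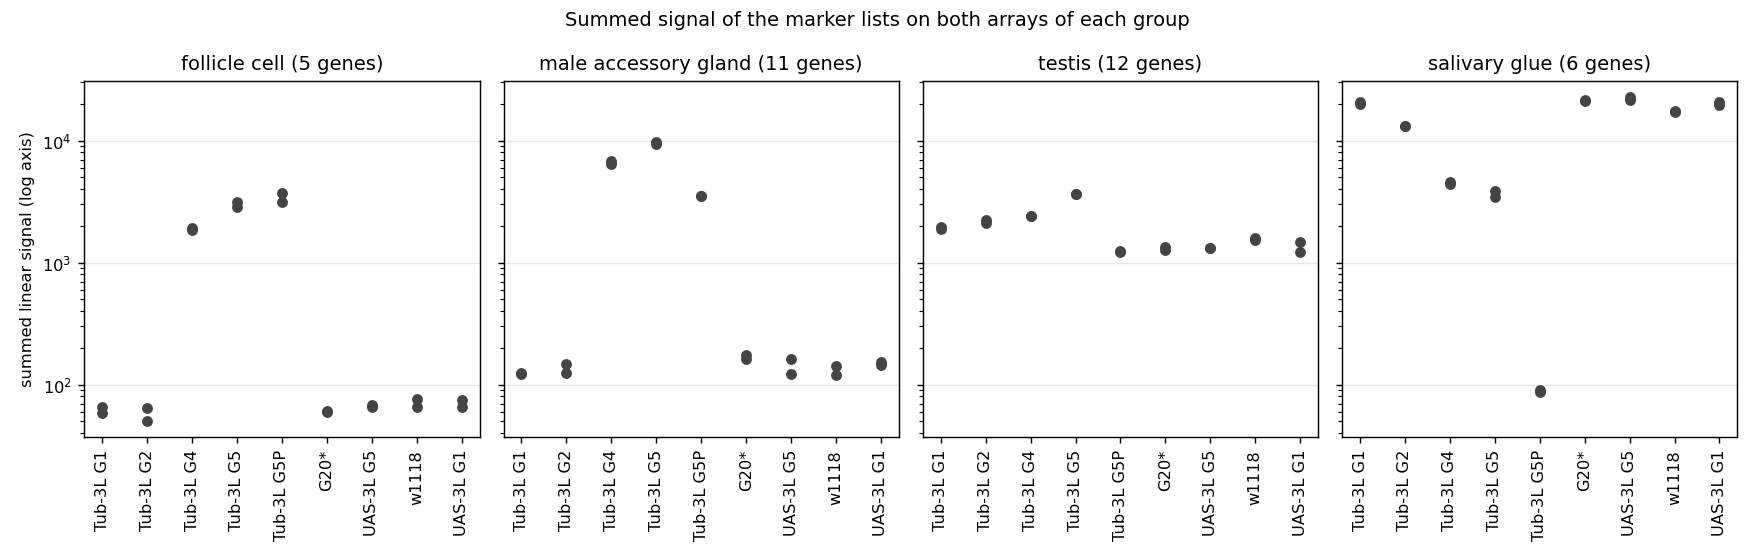
Summed linear signal (vertical log axis) of the follicle cell, male accessory gland, testis and salivary glue lists on the 2 arrays of each group. Follicle cell and accessory gland sums are high in Tub-3L G4, G5 and G5P, the testis sum is highest in G5 at 3635 to 3671, and the glue sum is lowest in G5P at 87.8 to 90.1.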

How the data were processed

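RNA of whole larvae of the third instar was hybridised to Drosophila Gene 1.1 ST arrays. The authors computed the deposited log2 values, 1 per probe set, with RMA at the core gene level in Affymetrix Expression Console 1.3. This corrects background and quantile normalizes the arrays, which forces a common distribution on all arrays. No scanner files or detection calls were used. Probe sets were named from the platform annotation: 2392 of 16322 had 1 symbol and 13930 had none, so most genes of the lists could not be looked up. The listed symbol dec-1 was read as dec. For a listed gene with several named probe sets, only the one with the highest mean signal was used. Values were fitted with limma 3.58.1 in R 4.3.3 over all 9 groups (9 residual degrees of freedom, 2.71 prior), for 15 comparisons, each adjusted over 16322 probe sets. Calls needed an adjusted p below 0.05 and 2-fold. The fit was tested on simulated data. Named genes were the members, the listed pathway, family and marker genes, and the 3 named probe sets with the highest r. Members and lists were chosen with earlier results of these data known. Groups came from the sample titles. A table of the authors' group averages was not used, because its column names match no sample label. Numbers of replicates in the labels did not pair the arrays. The methods' test compares 2 groups at a time. Alternatives changed the scaling, filter, threshold, test, control, replicate block and the arrays used. Only 2 arrays a group limits the precision.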

Additional observations from a re-analysis of the deposited data

Results flagged for a closer look

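The difference between Tub-3L and UAS-3L larvae, called the effect below, was larger in G5 than in G1 for each of the 5 genes. The limma interaction was chosen after seeing the data (driver against no driver in G5, minus the same in G1). No group carried the driver alone, and the parts of driver, stage and tissue make-up in the effect were not tested. The difference of effects was 6.13 for otu (SE 0.41, adjusted p 1.70e-07), 5.56 for zpg (SE 0.25, adjusted p 6.93e-09), 3.46 for orb (SE 0.13, adjusted p 1.53e-09), 4.55 for alphaTub67C (SE 0.48, adjusted p 8.46e-06) and 3.47 for fs(1)Ya (SE 0.34, adjusted p 4.42e-06). In G1 the effect was between -0.13 for alphaTub67C and 0.39 for fs(1)Ya, and in G5 between 3.53 for orb and 6.20 for otu. These sizes depend on the floor of the dim control values: with values raised to the lower quartile, an alternative added after seeing the data, the G5 effects ran from 2.43 for fs(1)Ya to 5.32 for otu, and the difference of effects was 5.26 for otu, 3.88 for zpg, 3.46 for orb, 4.58 for alphaTub67C and 2.38 for fs(1)Ya.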

How the results depend on the processing

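Of 1065 values of the members under alternative settings, 1049 kept their side of the threshold, 14 passed it only under the alternative and 2 lost it. The sign changed in 64, none of them called in either setting. Both losses were alphaTub67C by the methods' test after adjustment, in G4 against UAS-3L G1 (adjusted p 0.0700) and against G2 (0.0530). Without the 2-fold limit, members called higher numbered 1 in G2, G20* and w1118 against UAS-3L G1 and in G2 against G1 (orb each time). They numbered 2 in G5 against G4 and 4 in G5P against G5. Over all probe sets, those higher without that limit numbered 2766 in G2, 1191 in G20* and 2263 in w1118 against UAS-3L G1. The same count was 2608 in G2 against G1, 2275 in G5 against G4 and 4305 in G5P against G5. Centring each array on its median added 0.13 to every G5P against G5 difference and gave 1 call (fs(1)Ya, 1.12), while scaling to RpLP0 subtracted 0.11. Leaving out 1 array gave 0 to 1 calls in G2 against UAS-3L G1 (alphaTub67C, lower) and in G5P against G5 (fs(1)Ya, higher). Replicate numbers did not pair the arrays (correlations from -0.0643 to 0.0394 over 36 pairs of groups), and with the replicate block the members called stayed 5 in G4, G5 and G5P against UAS-3L G1. Over the alternatives run, the highest adjusted p of orb was 0.672 in G20* and 0.197 in w1118. In G5 against G4 the highest was 0.0652 for orb and 0.0954 for zpg, and in G5P against G5 it was 0.157 for otu, 0.298 for orb, 0.0435 for zpg and 0.0986 for fs(1)Ya. Over all probe sets, calls higher and lower in G5P against G5 were 470 and 1713, after centring 871 and 1289, and scaled to RpLP0 239 and 2108. Against UAS-3L G1, centring changed 200 and 280 to 123 and 366 in G1, 552 and 366 to 384 and 477 in G2, 1230 and 791 to 994 and 1097 in G4, 2124 and 1666 to 1617 and 2182 in G5, and 164 and 116 to 127 and 152 in UAS-3L G5. Scaled to RpLP0, they were 235 and 75 in G20* (144 and 127 without), 239 and 78 in UAS-3L G5, and 317 and 398 in w1118 (385 and 302 without). Probe sets called higher than UAS-3L G1 were fewer by the methods' test after adjustment (504 in G4, 1347 in G5, 1870 in G5P) and more without the 2-fold limit (3695, 5176 and 5492), and with the 2 groups fitted alone they were 0 in G20* and in UAS-3L G5. The dimness of otu, zpg and fs(1)Ya in the control groups limits their folds, and fs(1)Ya fell out when the dimmest 25% of probe sets were dropped.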
